A study of Mus musculus with 15 samples.

Results

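The 5 chemokine receptor genes Ccr1, Ccr2, Ccr3, Cxcr4 and Cx3cr1 were followed through the formation of osteoclasts from RAW 264.7 cells. The genes were taken from a list by name, which was chosen with earlier results of these data known. Each has 1 probe set annotated to it alone, so that they make up 5 of the 12422 probe sets tested and 5 of the 8251 genes represented on the array. RAW 264.7 is a transformed macrophage-like mouse line and a single line, so that no group holds primary cells. Cells were cultured with RANKL, the cytokine that turns such precursors into bone-resorbing osteoclasts, or without it, and the medium with or without RANKL, which held no serum, was given on days 0 and 3. The dose of RANKL is not given in the sources used here. RNA was measured on 8 arrays of control cells (days 1 and 5 with 1 array, days 2, 3 and 4 with 2) and 7 arrays of RANKL cells (day 1 with 1 array, days 2, 4 and 5 with 2). The labels describe all control cells and the RANKL cells of days 1 and 2 as mononuclear, and the RANKL cells of days 4 and 5 as multi-nuclear. Whether replicates are separate cultures is not stated, and the spread behind the p-values can therefore be technical.

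Chemokines are small secreted proteins that steer the migration of leukocytes along gradients. Their receptors cross the membrane several times and signal through G proteins of the Gi class, and RGS proteins shorten that signal by speeding up the hydrolysis of GTP. Ccr1 binds Ccl3, Ccl5, Ccl7 and Ccl9, Ccr2 binds Ccl2, Ccl7 and Ccl12, and Ccr3 binds the eotaxins such as Ccl11. Cxcr4 is the receptor of Cxcl12, which holds haematopoietic cells in the marrow, and Cx3cr1 is the receptor of the membrane-bound chemokine Cx3cl1 (fractalkine) and a marker of monocytes and resident macrophages. Osteoclast precursors are known to use several of these receptors to reach bone.

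Values are MAS5 signals, linear intensities that the authors had scaled so that the trimmed mean is 500. Array medians lay between 102.3 and 148.2. Differences are given as log2(signal + 32) with the standard error of limma, and a gene was called changed when its p-value, adjusted over all 12422 probe sets by the Benjamini-Hochberg method, was under 0.05. Detection calls were not analysed here, so a dim signal is given as measured. Ccr2, Ccr3 and Cxcr4 lay in the lower 50% of all probe sets by mean signal, and Ccr1 and Cx3cr1 in the upper 50%. The osteoclast genes Acp5, Ctsk, Mmp9 and Nfatc1 were called higher with RANKL, whereas Calcr and Itgb3 stayed under 100 on every array of days 2, 4 and 5. Each of the 8 macrophage markers examined reached 100 on at least 1 array of those days, and their summed signal was 54244 to 58272 on the 5 control arrays and 34721 to 60227 on the 6 RANKL arrays. Of the macrophage markers, Adgre1, Itgam and Fcgr1 were called lower with RANKL. Markers of T cells, B cells, neutrophils, eosinophils with mast cells, and stromal cells gave 0 calls over 26 genes for the mean RANKL effect. Their mean signals over days 2, 4 and 5 ranged widely. The eosinophil genes Epx and Il5ra had at most 5 with or without RANKL. The mast cell gene Cma1 had 183 without and 120 with it, Cd4 208 and 207, and Col1a2 1007 and 1030. The calls concern a difference with RANKL and not the presence of a transcript.

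Ccr1 was the receptor with a higher signal in RANKL cells from day 2 on. In control cells its signal was 106.2 at day 1, 106.0 and 86.9 at day 2, 188.8 and 113.2 at day 3, 139.6 and 123.3 at day 4, and 265.7 at day 5. In RANKL cells it was 60.5 at day 1, 563.4 and 471.9 at day 2, 867.7 and 1081.8 at day 4, and 1584.2 and 1402.0 at day 5. All 6 RANKL arrays of days 2, 4 and 5 lay above all 5 control arrays of those days, while the RANKL array of day 1 was the lowest of the 15. In order of mean signal, RANKL day 5 stood first, then RANKL day 4, RANKL day 2 and control day 5, each apart from the next by more than the pooled within-group SD of 0.23 (log2). Control days 3 and 4 did not differ by more than that SD, nor did control days 1 and 2, and RANKL day 1 came last.

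**Figure D1:**
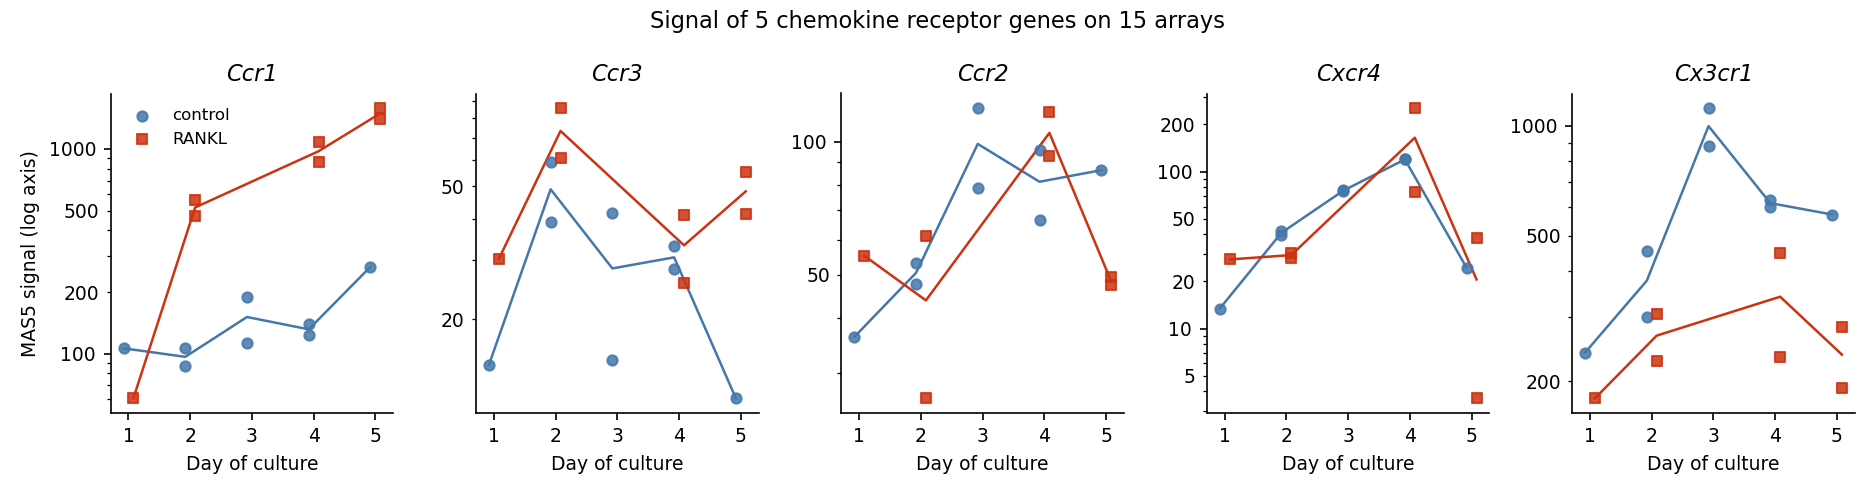
MAS5 signal (log axis, a separate scale in each panel) against day of culture for Ccr1, Ccr3, Ccr2, Cxcr4 and Cx3cr1; each point is 1 array, circles are control and squares RANKL cells, and lines join the means of the days. Ccr1 separates from day 2 on, from 471.9 or more with RANKL against at most 265.7 without it, and Cx3cr1 lies lower with RANKL on days 4 and 5.

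Averaged over days 1, 2, 4 and 5, Ccr1 was higher with RANKL by 1.62 ± 0.15 (SE; 3.08-fold on this scale; limma adjusted p = 0.000396). Ccr1 was the only one of the 5 receptors called, beside 1.09% of all probe sets, and the median difference of the 5 was 0.04, against 0.01 over all probe sets. It had the 6th smallest p of all probe sets in that comparison. The call held in all 23 alternatives, with values from 1.38 to 2.36. Without either day 1 array, when day 1 leaves the mean, the difference was 2.36 ± 0.15.

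By day, the Ccr1 difference was 2.10 ± 0.25 at day 2 (4.28-fold; limma adjusted p = 0.00781), when 0.853% of all probe sets were called. It was 2.62 ± 0.25 at day 4 (6.13-fold; limma adjusted p = 0.000709; 0.266% of all probe sets called) and 2.35 ± 0.31 at day 5 (5.11-fold; limma adjusted p = 0.00556; 0.918% called). At each of these days 1 of the 5 receptors was called. The day 4 and day 5 calls held in every alternative run for those days. No alternative for day 5 left out its 1 control array, without which that comparison cannot be run. The day 2 call was lost without control day 2 replicate 2 (adjusted p = 0.0797), without either RANKL array of day 2 (0.0594 without replicate 1, 0.0569 without replicate 2), when the difference was 1.99, 1.98 and 2.22.

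At day 1, with 1 array on each side, the Ccr1 difference was -0.58 ± 0.35 (limma adjusted p = 0.907). No receptor and 0% of all probe sets were called there, and 728 probe sets had an unadjusted p under 0.05. The late minus early difference sets the mean RANKL effect of days 4 and 5 against that of days 1 and 2. For Ccr1 it was 1.73 ± 0.29 (limma adjusted p = 0.101), which was not called, in a comparison with 0.0403% of all probe sets called. Set against day 2 alone, the effect of days 4 and 5 was larger by 0.39 ± 0.32 (limma adjusted p = 0.898). The mean effect of days 2, 4 and 5 minus that of day 1, a comparison added after the values were seen, was 2.93 ± 0.39 for Ccr1 (limma adjusted p = 0.0213; 0.0483% of all probe sets called), and the other 4 receptors were not called in it.

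**Figure D2:**
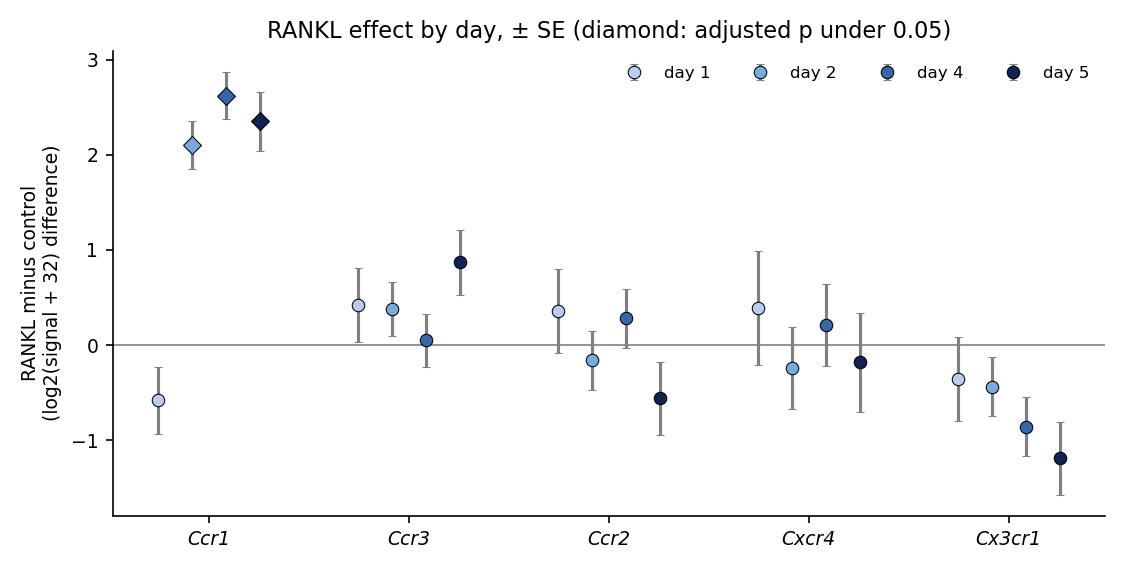
RANKL minus control difference in log2(signal + 32) at days 1, 2, 4 and 5 for each receptor gene; bars are standard errors from limma, and diamonds mark an adjusted p under 0.05. The 3 diamonds are Ccr1 at day 2 (2.10), day 4 (2.62) and day 5 (2.35); Cx3cr1 runs from -0.36 at day 1 to -1.19 at day 5 with no call.

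Culture time was read within each treatment as the mean of days 4 and 5 minus that of days 1 and 2. In RANKL cells Ccr1 rose by 2.46 ± 0.20 (5.48-fold; limma adjusted p = 0.00014) and was the only receptor of the 5 called, in a comparison in which 14.8% of all probe sets were called. Without the RANKL array of day 1, which leaves day 2 as the early time, the value was 1.17 and was still called. In control cells 10.9% of all probe sets and none of the 5 receptors were called. Ccr1 there had a difference of 0.73 ± 0.22 (limma adjusted p = 0.0533), which passed the threshold in 7 of 23 alternatives. The control value rests in good part on the array of day 5, since it was 0.29 ± 0.23 without it.

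Ccr1, Ccr1l1, Ccr3 and Ccr2 follow each other in that order on mouse chromosome 9, with Xcr1 and Cxcr6 on the other side of Ccr1, in the RefSeq annotation of GRCm38.p6. Of these neighbours, Ccr1l1, a gene closely related to Ccr1, had a mean difference of -0.17 ± 0.20 and Xcr1 of -0.14 ± 0.22, and neither was called. Cxcr6 was not analysed here. The RefSeq promoter table held all 5 receptors. The 250 bases before the start of Ccr1, Ccr3 and Ccr2 are shown because these members of the 5 receptors lie close together, and only Ccr1 was called with RANKL. The window of Ccr1l1, which lies between Ccr1 and Ccr3, is not shown. Capitals mark matches on either strand to the letters TGANTCA (AP-1), GGAAA (the NFAT core) and GGGNNNNNCC (NF-kB).

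Ccr1, chr9:123968693-123968942, minus strand: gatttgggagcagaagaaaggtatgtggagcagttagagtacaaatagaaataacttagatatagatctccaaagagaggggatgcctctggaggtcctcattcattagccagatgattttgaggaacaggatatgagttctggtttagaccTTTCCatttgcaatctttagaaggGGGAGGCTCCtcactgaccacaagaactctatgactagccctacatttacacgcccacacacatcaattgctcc
Ccr3, chr9:124021721-124021970, plus strand: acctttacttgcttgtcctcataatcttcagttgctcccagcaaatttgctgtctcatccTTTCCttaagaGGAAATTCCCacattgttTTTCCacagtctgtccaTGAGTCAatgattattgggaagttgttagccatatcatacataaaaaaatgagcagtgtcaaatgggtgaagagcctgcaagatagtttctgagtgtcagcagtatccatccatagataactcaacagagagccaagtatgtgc
Ccr2, chr9:124101933-124102182, plus strand: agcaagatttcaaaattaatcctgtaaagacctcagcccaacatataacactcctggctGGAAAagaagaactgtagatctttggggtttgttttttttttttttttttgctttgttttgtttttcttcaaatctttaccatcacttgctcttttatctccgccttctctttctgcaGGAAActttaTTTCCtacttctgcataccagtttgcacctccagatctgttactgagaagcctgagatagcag

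The Ccr1 window held 1 NFAT core, whose leftmost base lies 98 bases before the start, and 1 NF-kB match 74 bases before it. It held 0 AP-1 matches. The Ccr3 window held 3 NFAT cores, 1 NF-kB match that overlaps 1 of them, and 1 AP-1 match 144 bases before the start. The Ccr2 window held 3 NFAT cores, 0 NF-kB matches and 0 AP-1 matches. Among 32851 promoter windows of the same length, 55.6% held an NFAT core, 45.8% an NF-kB match and 6.75% an AP-1 match. Of 3 further motifs searched, GAGGAA (PU.1; in 23.3% of windows) matched once in each of the Ccr1 and Ccr3 windows and 0 times in the Ccr2 window, and TCANGTG (the M-box; 12.2%) and TTCNNNGAA (STAT; 7.02%) matched in none of the 3. The windows of Cxcr4 and Cx3cr1 each held 1 NFAT core and no AP-1 match. These matches describe letters only.

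Cx3cr1 went the other way without reaching the threshold in the mean over the 4 days. Its control signal was 239.6 at day 1, 299.1 and 454.9 at day 2, 878.0 and 1118.7 at day 3, 600.7 and 628.5 at day 4, and 572.0 at day 5. With RANKL it was 179.7 at day 1, 305.5 and 227.9 at day 2, 448.5 and 233.1 at day 4, and 281.9 and 191.4 at day 5. The 4 RANKL arrays of days 4 and 5 all lay below the 3 control arrays of those days, whereas at day 2 the groups overlapped. Control day 3 was the highest group and stood apart from control day 4 by more than the pooled within-group SD of 0.36 (log2), as did control day 5 from control day 2 below it. From control day 2 down, through the 4 RANKL groups and control day 1, no gap between neighbours was over that SD.

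Averaged over days 1, 2, 4 and 5, the Cx3cr1 difference was -0.71 ± 0.18 (95% interval -1.11 to -0.31; limma adjusted p = 0.108). By day it was -0.36 ± 0.44, -0.44 ± 0.31, -0.86 ± 0.31 and -1.19 ± 0.38 at days 1, 2, 4 and 5, with no call. Single arrays set much of these values: the day 2 value ran from -0.72 without control day 2 replicate 1 to -0.16 without replicate 2, and the day 4 value from -1.29 without RANKL day 4 replicate 1 to -0.43 without replicate 2. The mean passed the threshold in 5 of 23 alternatives. Over days 2, 4 and 5 only, it was -0.83 ± 0.19 (limma adjusted p = 0.0409), and without RANKL day 4 replicate 1 it was -0.82 ± 0.16 (0.0368). The late minus early RANKL effect was -0.62 ± 0.36 (limma adjusted p = 0.688).

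With culture time the Cx3cr1 difference was 0.92 ± 0.27 in control cells (limma adjusted p = 0.0506, past the threshold in 9 of 23 alternatives) and 0.30 ± 0.25 in RANKL cells (adjusted p = 0.511). With day 3 added to the late days, the control value was 1.16 ± 0.24 (limma adjusted p = 0.00782). Of the 8 macrophage markers, Adgre1, Itgam and Fcgr1 were called, with mean RANKL differences of -0.76, -1.08 and -1.77. The others were not called, at -0.31 (Lyz2), -0.11 (Cd14), -0.10 (Csf1r), 0.10 (Cd68) and 0.31 (Spi1). The part of these genes in the Cx3cr1 value was not tested.

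Ccr3, best known as the eotaxin receptor of eosinophils, was dim on every array. Its control signal was 14.6 at day 1, 59.0 and 39.0 at day 2, 41.7 and 15.1 at day 3, 33.1 and 28.2 at day 4, and 11.6 at day 5. With RANKL it was 30.3 at day 1, 60.7 and 85.8 at day 2, 41.0 and 25.6 at day 4, and 55.3 and 41.3 at day 5. The treatments overlapped at day 4, and the RANKL arrays of days 2 and 5 lay above the control arrays of the same day. RANKL day 2 was the highest group and stood apart from control day 2, next to it, by more than the pooled SD of 0.27 (log2), and control days 1 and 5 stood below the rest by more than it. The mean difference was 0.43 ± 0.16 (95% interval 0.07 to 0.79; limma adjusted p = 0.328) and stayed positive, from 0.21 to 0.90, over 22 alternatives with no call. At day 5 it was 0.87 ± 0.34 (limma adjusted p = 0.275), a value that ran from 0.41 to 1.95 with the pseudocount and the arrays used.

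Ccr2, the Ccl2 receptor of inflammatory monocytes, had signals between 26.3 and 119.3 with no order by treatment. Control cells gave 36.2 at day 1, 47.8 and 53.3 at day 2, 78.6 and 119.3 at day 3, 66.5 and 96.0 at day 4, and 86.3 at day 5. With RANKL the signals were 55.3 at day 1, 61.3 and 26.3 at day 2, 92.8 and 116.8 at day 4, and 47.4 and 49.4 at day 5. RANKL day 4, control day 3, control day 5 and control day 4 were the highest groups and did not differ from each neighbour in that order by more than the pooled SD of 0.27 (log2). The mean RANKL difference was -0.02 ± 0.18 (95% interval -0.42 to 0.38; limma adjusted p = 0.985), and its sign changed in 5 of 22 alternatives. At day 5, where both RANKL arrays lay below the 1 control array, it was -0.56 ± 0.38 (limma adjusted p = 0.568).

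Cxcr4 was highest at day 4 in both treatments. In control cells it was 13.4 at day 1, 39.8 and 41.8 at day 2, 75.1 and 76.2 at day 3, 119.9 and 119.7 at day 4, and 24.4 at day 5. In RANKL cells it was 27.6 at day 1, 30.5 and 28.4 at day 2, 74.8 and 254.6 at day 4, and 37.6 and 3.6 at day 5. The replicates lay close together in control cells and far apart in RANKL cells of days 4 and 5. RANKL day 4, control day 4 and control day 3 stood apart from the other 6 groups by more than the pooled SD of 0.50 (log2), and no other neighbours in the order differed by more than it. The mean RANKL difference was 0.04 ± 0.25 (95% interval -0.50 to 0.59; limma adjusted p = 0.982), with a sign that changed in 7 of 22 alternatives. With culture time the difference was 0.69 ± 0.37 in control cells (limma adjusted p = 0.296) and 0.63 ± 0.34 in RANKL cells (0.263), and neither was called. The control value was 1.40 without control day 5 replicate 1 and 0.35 without control day 1 replicate 1, with no call. The RANKL value was 0.98 and called without RANKL day 4 replicate 1 (limma adjusted p = 0.0367), 0.27 when the other RANKL array of day 4 was left out, and 0.38 when replicate 1 of RANKL day 5 was.

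Across the 15 arrays, the log2 signals of Ccr1 correlated with those of Ccr3 at r = 0.36 and of Cx3cr1 at r = -0.36, and with those of Ccr2 and Cxcr4 at 0.01 and 0.00. Ccr2 correlated with Cxcr4 at r = 0.71 and with Cx3cr1 at r = 0.62. These are descriptions over arrays that share days and treatments.

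Of 20 other chemokine receptor genes listed, 16 were represented, and none was called for the mean RANKL effect or on any of days 1, 2, 4 and 5. Their median difference was 0.09, against 0.01 over all probe sets, and 10 of 16 were positive. The values farthest from 0 in the mean over 4 days were those of Cmklr1, the chemerin receptor (-0.40 ± 0.10, limma adjusted p = 0.118), and Ackr1, an atypical receptor that binds chemokines without G protein signalling (0.38 ± 0.09, limma adjusted p = 0.0997). The Ackr1 value rests on the day 1 arrays, where its difference was 1.12. At days 2, 4 and 5 that of Ackr1 was 0.24, 0.01 and 0.13. The Cmklr1 difference was -0.86, -0.52, 0.33 and -0.54 at days 1, 2, 4 and 5. Over days 2, 4 and 5 only, the mean was -0.24 for Cmklr1 and 0.13 for Ackr1. Cmklr1 did not exceed 34.9 on any array. Ackr1 reached 63.1 on the RANKL array of day 1 and at most 24.7 on the others. Its fall with culture time in RANKL cells (-0.60 ± 0.13, limma adjusted p = 0.00901) was the 1 call among the 16 in any comparison of time, and it was lost without that day 1 array.

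**Figure D3:**
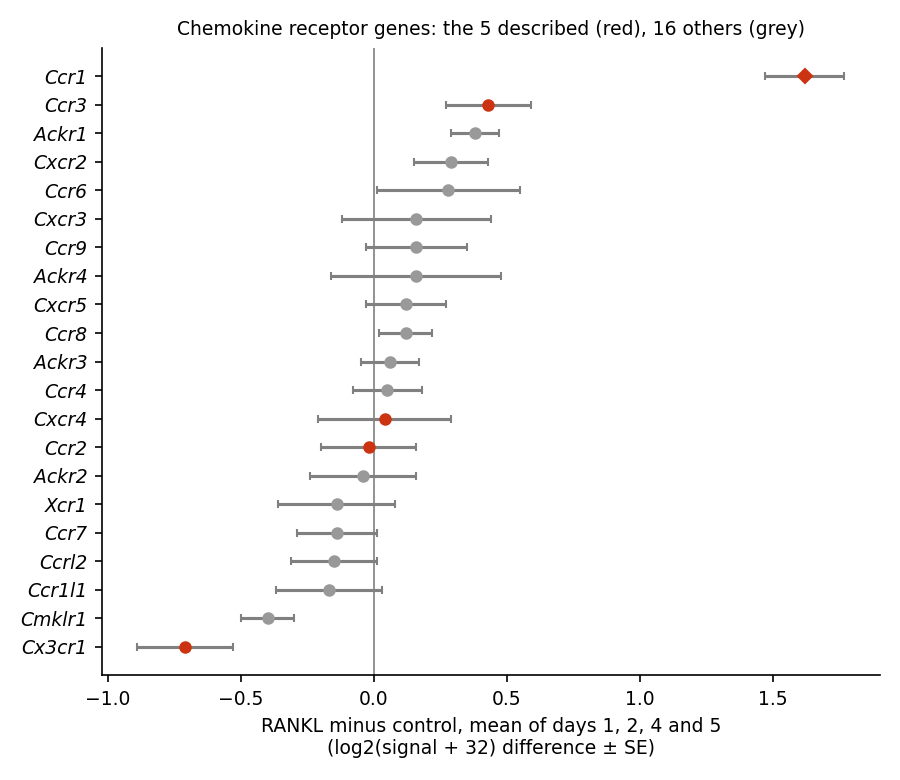
Mean RANKL minus control difference over days 1, 2, 4 and 5, in log2(signal + 32), for 21 chemokine receptor genes ordered by value; bars are standard errors, red marks the 5 receptors described and grey the 16 others, and the diamond marks an adjusted p under 0.05. Ccr1 (1.62) is the 1 diamond; the other 20 lie between -0.71 (Cx3cr1) and 0.43 (Ccr3).

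Of 13 ligands of the 5 receptors listed, 12 were represented, and 0 were called for the mean RANKL effect (median 0.05, 7 of 12 positive). Ccl9, a Ccr1 ligand, had mean signals over days 2, 4 and 5 of 15760 without and 20914 with RANKL (0.35 ± 0.15, limma adjusted p = 0.407). Ccl3, another Ccr1 ligand, had 5475 and 4204 (-0.45 ± 0.34, adjusted p = 0.743). The Cxcr4 ligand gene Cxcl12 had 53 and 53 (0.23 ± 0.21, limma adjusted p = 0.813). The Cx3cr1 ligand gene Cx3cl1 had 50 and 76 (0.04 ± 0.25, limma adjusted p = 0.982). These differences and p-values include day 1, which the mean signals leave out. For Cx3cl1 the difference was -1.18 at day 1 and 0.47, 0.24 and 0.63 at days 2, 4 and 5. The largest mean difference was that of Ccl4 (-1.67 ± 0.52, limma adjusted p = 0.196), which was called in 4 of 23 alternatives. Ccl4 signals at day 2 were 1099.7 and 1115.8 without RANKL and 221.7 and 245.2 with it. At days 4 and 5 its RANKL replicates lay far apart, at 2713.6 and 464.0 and at 2204.7 and 190.0.

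At day 5, where 0.918% of all probe sets were called, 3 of the 12 ligands fell with RANKL, and these were named after their values were seen, except Ccl7, whose mean difference (-0.46 ± 0.25, limma adjusted p = 0.563) the naming rule had picked. Ccl2 fell by 2.11 (SE 0.30; limma adjusted p = 0.00802), Ccl7 by 2.89 (SE 0.52; 0.027) and Ccl5 by 1.51 (SE 0.31; 0.0492). All 3 comparisons rest on 1 control array. On it Ccl2 was 4786.4, against 301.8 to 717.9 on the other 7 control arrays and 891.0 and 1326.2 on the RANKL arrays of day 5. The Ccl2 difference had the other sign at day 4 (1.18 ± 0.25, limma adjusted p = 0.122). With culture time Ccl2 rose in RANKL cells (1.54 ± 0.19, limma adjusted p = 0.000847) and in control cells (2.02 ± 0.21, 0.000756), where the call was lost without the day 5 array (0.60). Ccl7 was 453.8 on that array, against at most 110.1 on the other control arrays, and Ccl4 was 12019.1, against at most 2275.5. Ccr1 had its highest control signal on the same array, and Ccr3 its lowest. The Ccl5 call was lost in 13 of 20 alternatives and the Ccl7 call in 4 of 20, and the Ccl2 call held in all 21. None of these alternatives left out the control array of day 5, without which the day 5 comparison cannot be run.

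**Figure D4:**
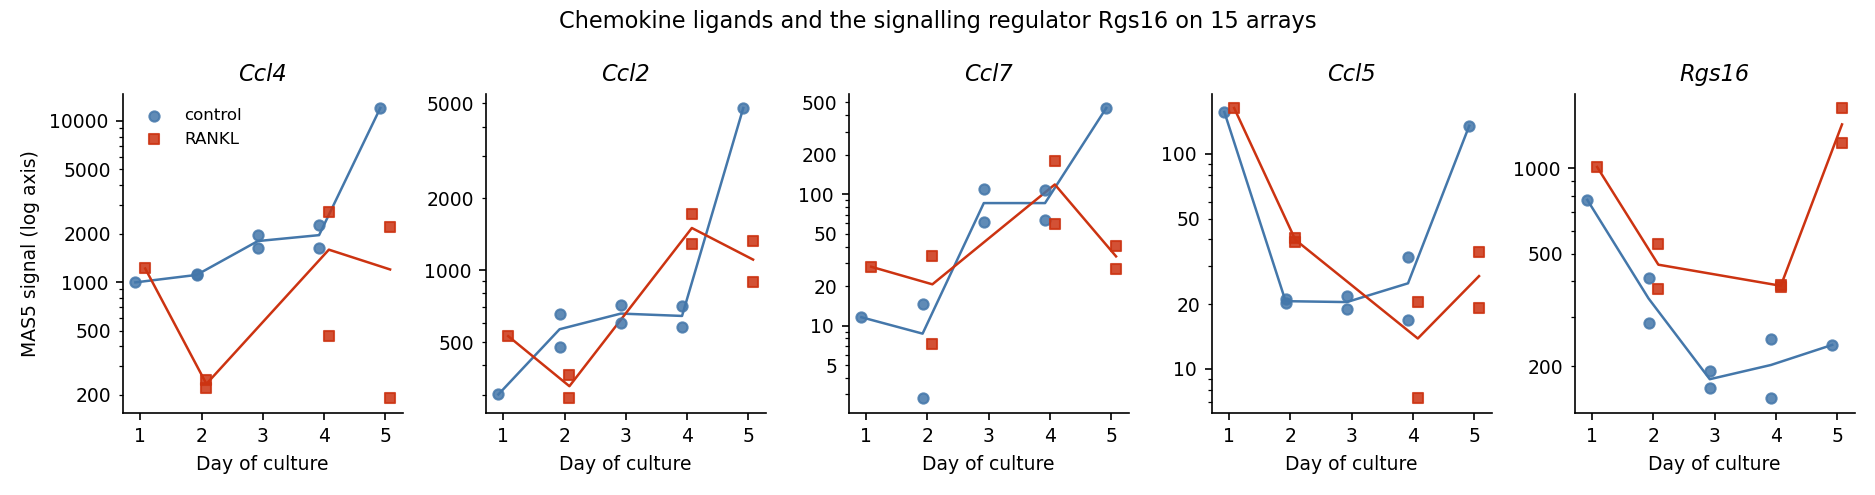
MAS5 signal (log axis, a separate scale in each panel) against day of culture for the ligand genes Ccl4, Ccl2, Ccl7 and Ccl5 and for Rgs16; each point is 1 array, circles are control and squares RANKL cells, and lines join the means of the days. The control array of day 5 is the highest of the control arrays for Ccl4 (12019.1), Ccl2 (4786.4) and Ccl7 (453.8), and Rgs16 is highest with RANKL at day 5 (1222.7 and 1628.0).

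Of 31 listed genes that act in chemokine receptor signalling, 21 were represented, with a median RANKL difference of -0.05. In the mean over the 4 days 1 of the 21 was called, beside 1.09% of all probe sets. Rgs16, which ends Gi signals, rose by 1.00 ± 0.16 (limma adjusted p = 0.00971). Its control signal was 772.5 at day 1, 409.7 and 285.0 at day 2, 193.2 and 167.6 at day 3, 154.5 and 250.5 at day 4, and 238.3 at day 5. With RANKL it was 1008.9 at day 1, 539.5 and 374.1 at day 2, 388.8 and 381.1 at day 4, and 1222.7 and 1628.0 at day 5. At days 4 and 5 its RANKL arrays lay above every control array of those days, and at day 2 the groups overlapped. The day 5 difference was 2.42 ± 0.33 (limma adjusted p = 0.00712) and held in all 21 alternatives, none of which left out the 1 control array of day 5. The mean was lost without control day 5 replicate 1, when day 5 leaves it (0.53 ± 0.18, limma adjusted p = 0.359). A dimmer probe set of Rgs16 had a mean difference of 0.85 ± 0.24 (limma adjusted p = 0.141) and a day 5 difference of 2.29 ± 0.50, neither called.

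Ptk2b, the kinase Pyk2 that links G protein and integrin signals in osteoclasts, was the other called gene of the list on a single day, and was named after its values were seen. It fell at day 2 by 1.39 (SE 0.24; limma adjusted p = 0.0257), from 924.8 and 1566.0 without RANKL to 464.5 and 413.5 with it. That call was lost in 4 of 22 alternatives. The Gi subunit genes Gnai2 (0.06 ± 0.12) and Gnai3 (-0.03 ± 0.23) and the GTPase genes Rac1 (-0.01 ± 0.10) and Rac2 (0.03 ± 0.12), which carry the signal to the cytoskeleton, were not called in the mean. With culture time in RANKL cells, where 14.8% of all probe sets were called, 5 of the 21 rose and 0 fell: Gnb1 (0.63), Arrb1 (0.77), Rgs10 (0.83), Dock2 (0.82) and Rap1a (1.25), all named after their values were seen. Their other probe sets had 0.30 and 1.30 (Gnb1), 0.37 (Arrb1), 0.17 and 0.48 (Rgs10) and 1.41 (Rap1a), of which the 1.30 and the 1.41 were called. The Dock2 call was lost in 11 of 23 alternatives and that of Gnb1 in 4. In control cells, where 10.9% of all probe sets were called, Rap1a was also called (1.04), as were Gnb2 (0.56), Rac2 (0.79) and Rgs16, which fell by 1.14 (SE 0.23; limma adjusted p = 0.0106). These calls were lost in 14 (Gnb2), 6 (Rap1a), 5 (Rac2) and 2 (Rgs16) of 23 alternatives, and the Rgs16 value was -0.59 without control day 1 replicate 1.

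The 5 genes whose log2 signals followed Ccr1 most closely over the 15 arrays were Ctsk (r = 0.952), Pdhb (0.936), Ro60 (0.914), Mkrn1 (0.911) and Prdm1 (0.902). The arrays share days and treatments, so these values describe a likeness of pattern only. Ctsk encodes cathepsin K, the protease with which osteoclasts degrade collagen. It had 171.0 on the RANKL array of day 1, where Ccr1 was also low, and then 1050.7 and 1309.6 at day 2, 2702.8 and 3585.5 at day 4, and 5915.3 and 7480.6 at day 5. Its mean RANKL difference was 2.57 ± 0.15 (limma adjusted p = 7.19e-06), and its day 1 difference was -0.58 ± 0.36, close to the -0.58 of Ccr1. From day 2 to day 5 the Ctsk difference went from 2.14 to 3.53 and 5.19, whereas that of Ccr1 went from 2.10 to 2.62 and 2.35. The day 5 differences rest on 1 control array, the highest of the control arrays for Ccr1 (265.7) and the lowest for Ctsk (150.7). In RANKL cells the mean Ccr1 signal still rose, from 974.8 at day 4 to 1493.1 at day 5.

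Prdm1 encodes the transcriptional repressor Blimp1, which osteoclast formation requires. It had 59.5 and 50.3 at day 2 with RANKL, 129.4 and 209.9 at day 4, and 305.3 and 240.5 at day 5, and at most 52.7 without it. The Prdm1 difference was called at day 5 (2.05 ± 0.39, limma adjusted p = 0.0373; lost in 11 of 20 alternatives) and not in the mean (0.76 ± 0.19, adjusted p = 0.0901). The mean difference was 0.23 ± 0.09 for Pdhb, a subunit of pyruvate dehydrogenase, 0.60 ± 0.14 for Ro60, an RNA-binding protein, and 0.49 ± 0.10 for Mkrn1, a ubiquitin ligase. Of these, Mkrn1 was called (limma adjusted p = 0.0375; lost in 15 of 23 alternatives), and its 2 other probe sets had 0.42 and 0.12 with no call. Another, very dim probe set of Ro60 had -0.17.

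**Figure D5:**
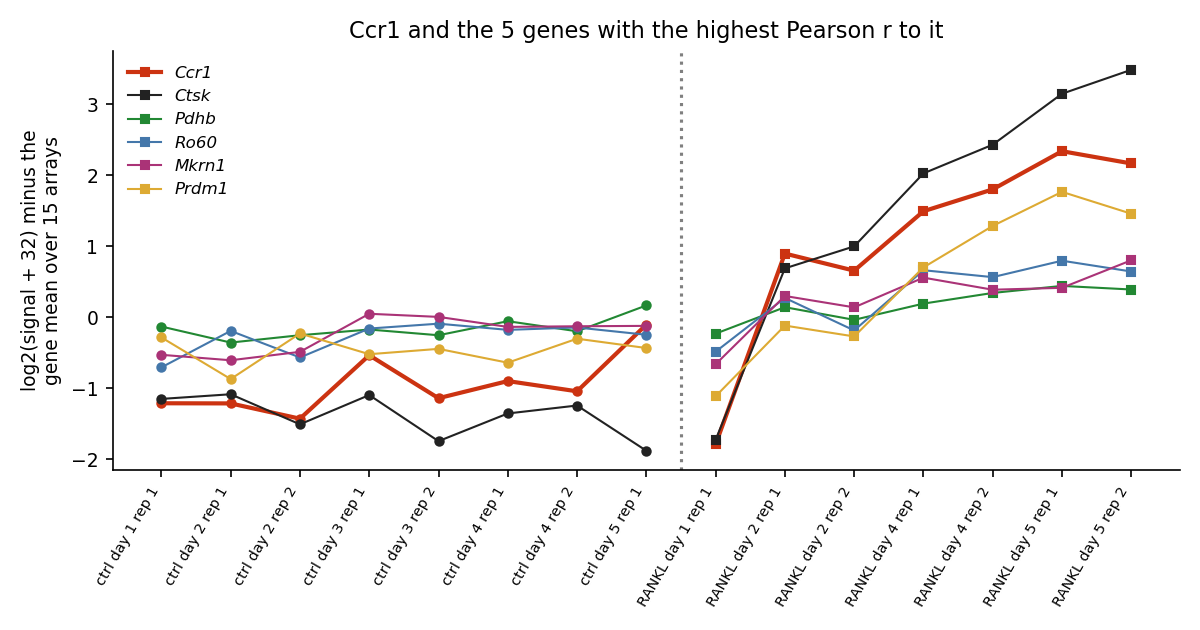
Log2(signal + 32) minus the mean of the gene over 15 arrays, for Ccr1 and the 5 genes with the highest Pearson correlation to it; each point is 1 array, with 8 control arrays on the left and 7 RANKL arrays on the right, and lines join the points only to guide the eye. All 6 genes are higher on the 4 RANKL arrays of days 4 and 5 than on the RANKL array of day 1, and Ctsk (r = 0.952) and Ccr1 span the widest range.

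RNA quality can be read from the ratio of the 3' to the 5' probe set of beta-actin, which was 1.01 to 1.25 on the control and 1.02 to 1.39 on the RANKL arrays of days 2, 4 and 5. With it as a covariate, an alternative added after the data were seen, the mean Ccr1 difference was 1.57 ± 0.17 (limma adjusted p = 0.00353) and that of Cx3cr1 -0.58 ± 0.20 (0.367). In cultures measured in bulk, more cells with a transcript and more of it in each cell cannot be told apart.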

How the data were processed

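The authors deposited 1 table of MAS5 signals, linear intensity values per probe set, per the submitters' processing notes; the MAS5 version is not given in the sources used here. The 2% trimmed mean of the deposited intensity was 500 on each of the 15 arrays, and no further normalization was applied. Of 12488 probe sets, 66 manufacturer controls were left out, and 12422 were tested with no filter as log2(signal + 32). The platform annotation gives 1 gene for 10833 of these, several for 396 and none for 1193. Each gene outside the 5 receptors is represented by its probe set of highest mean.

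The 9 group means were fitted together with limma 3.58.1 in R 4.3.3 (eBayes with an intensity trend; 6 residual and 5.39 prior degrees of freedom), and a group of 1 array takes its spread from the replicated groups. All tests are two-sided with Benjamini-Hochberg adjustment over all probe sets within a comparison. The code was tested on simulated data. The receptors, the lists and the naming rule were chosen with earlier results of these data known. The rule names up to 4 called genes of each list by size of the mean RANKL effect, or 2 where none was called, and the 5 genes most correlated with Ccr1; genes named beyond it were chosen after their values were seen. The alternatives changed the pseudocount, the normalization, the probe sets, the trend, the days, a replicate block, an RNA quality covariate and single arrays. Over 15 pairs of groups, replicate differences correlated from -0.17 to 0.12, and the main fit did not pair arrays by replicate number. Whether arrays share a culture or a batch was not tested.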

Additional observations from a re-analysis of the deposited data

Results flagged for a closer look

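The RANKL effect on Ccr1 at day 1 stood apart from that of the later days. The mean effect of days 2, 4 and 5 minus that of day 1 was 2.93 ± 0.39 (limma adjusted p = 0.0213), with 6 of 12422 probe sets called. This comparison was built after the day 1 value was seen, so its p is no independent evidence, and its day 1 arms hold 1 array each, with Ccr1 at 60.5 with RANKL and 106.2 without it. The planned late minus early difference was 1.73 ± 0.29 and was not called (limma adjusted p = 0.101).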

How the results depend on the processing

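Of the receptor calls, those of Ccr1 for the mean RANKL effect, day 4, day 5 and culture time in RANKL cells held in every alternative run. The day 5 comparison could not be run without its 1 control array. The count of 1 receptor for the mean effect was 2 in the upper 50% of probe sets, 2 over days 2, 4 and 5 only, and 1 to 2 when leaving out single arrays, Cx3cr1 being the gene added. It was 0 to 1 at day 2 and 1 to 2 for culture time in RANKL cells when leaving out single arrays. For the late minus early effect the count of 0 was 1 in the upper 50% of probe sets and for days 2, 4 and 5 against day 1. For culture time in control cells the count of 0 (limma; Ccr1 and Cx3cr1 at unadjusted p = 0.00598 and 0.00552, Ccr2 at 0.0406) was 2 with a pseudocount of 1, 2 in the upper 50%, 1 with no intensity trend, 2 with day 3 among the late days, and 0 to 2 when leaving out single arrays.

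Over all probe sets, the count of 136 for the mean effect was 218 in the upper 50%, 426 over days 2, 4 and 5 only, 60 with the beta-actin ratio as a covariate, and 11 (without control day 5 replicate 1) to 427 (without either day 1 array) when leaving out single arrays. The day 2 count of 106 was 68 with no trend, 27 with the covariate and 2 to 147 without single arrays. The day 4 count of 33 was 12 with the covariate and 9 to 54, and the day 5 count of 114 was 244 in the upper 50% and 52 (without RANKL day 5 replicate 2) to 355 (without replicate 1). With the replicate block, the day 5 count was 64 and no receptor call changed. The late minus early count of 5 was 12 in the upper 50%, 3 with no trend, 2 against day 2 alone and 2 to 21. Culture time gave 1839 probe sets in RANKL cells (1123 with the covariate, 1146 to 1972) and 1348 in control cells (224 with the covariate, 700 to 1410). The Ccl5 change with culture time in control cells, -0.04, ran from -0.82 to 0.88 when leaving out single arrays. The causes of these moves were not tested. The number of arrays limits the precision, and the signals of Ccr2, Ccr3 and Cxcr4 are too dim for small differences.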
